A study of Homo sapiens with 2 samples.

Results

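The unfolded protein response genes described here are 10 sensors, transcription factors and targets: ATF6, ERN1, XBP1, SDF2L1, PDIA4, PDIA6, CRELD2, HERPUD1, SEL1L and EDEM1. They were taken as every probe set that the platform annotation assigns to 1 of these symbols alone, which gave 24 of the 54675 probe sets on the array. RNA came from CL1-0, an established human lung adenocarcinoma line that the labels describe as of type II alveolar origin. The first group carried an FDFT1 expression vector and the second a control vector, with 1 Affymetrix array each. In both groups the cells had been stably transduced and kept under puromycin, and the labels do not say whether they were pools or clones. FDFT1 encodes squalene synthase, the mevalonate pathway enzyme that commits farnesyl pyrophosphate to sterols. No FDFT1 value was analysed here, which leaves the overexpression unchecked. With 1 array per group there was no replicate, and no p-value can be given for any gene.

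The unfolded protein response adjusts the folding capacity of the endoplasmic reticulum (ER) to its load. Misfolded proteins in the ER lumen activate the membrane sensors ATF6, IRE1 (gene ERN1) and PERK (gene EIF2AK3). ATF6 is cut in the Golgi by the site-1 and site-2 proteases, and its freed cytosolic part enters the nucleus as a transcription factor. IRE1 removes a short intron from XBP1 mRNA, so that the active XBP1 factor is translated, and PERK phosphorylates the initiation factor eIF2α. Their targets include chaperones and disulfide isomerases of the ER lumen and the machinery of ER-associated degradation. Cleavage of ATF6, phosphorylation and XBP1 splicing are not read by the probe set signals described here, which measure RNA levels.

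ATF6, XBP1 and other factors act on targets through the ER stress response element, ERSE, and its shorter form, ERSE-II. The windows that hold a full element are shown because these elements are the sequences through which the pathway is known to act, and a match is a description, not a measured site. RefSeq promoter windows (build GRCh38.p14), running from 250 bases before to 50 bases after each annotated start, were found for all 10 genes, 13 windows in all. ERSE was searched as CCAAT, 9 bases of any kind and CCACG, and ERSE-II as ATTGG, 1 base of any kind and CCACG, on both strands. ERSE was present in windows of XBP1, PDIA6 and CRELD2, against 0.0769% of all 35116 windows. ERSE-II was present in windows of HERPUD1 and SDF2L1, against 0.0541% of all windows. No window held both elements. Each line below gives the gene's strand 5′ to 3′ with up to 50 flanking bases, ending before the start site, and capitals mark the element. The stretches are chr22:28800570-28800671 on the minus strand for XBP1, chr2:10812803-10812921 on the minus strand for PDIA6, chr22:49918504-49918622 on the plus strand for CRELD2, chr16:56931975-56932085 on the plus strand for HERPUD1 and chr22:21642064-21642174 on the plus strand for SDF2L1.
XBP1: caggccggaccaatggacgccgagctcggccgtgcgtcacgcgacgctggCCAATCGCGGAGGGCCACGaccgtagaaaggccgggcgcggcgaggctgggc
PDIA6: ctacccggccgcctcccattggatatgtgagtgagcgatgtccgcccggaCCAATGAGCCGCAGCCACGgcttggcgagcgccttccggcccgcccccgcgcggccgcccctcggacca
CRELD2: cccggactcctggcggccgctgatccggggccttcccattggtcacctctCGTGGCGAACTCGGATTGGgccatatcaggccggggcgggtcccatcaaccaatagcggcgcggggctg
HERPUD1: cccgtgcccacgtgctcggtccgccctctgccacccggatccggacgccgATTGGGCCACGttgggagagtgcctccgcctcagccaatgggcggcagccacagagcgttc
SDF2L1: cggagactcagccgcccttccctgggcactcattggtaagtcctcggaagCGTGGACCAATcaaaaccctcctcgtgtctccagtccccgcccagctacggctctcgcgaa

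In the gene's own direction the element begins 52 bases before the start for XBP1, 86 for PDIA6, 80 for CRELD2, 117 for HERPUD1 and 188 for SDF2L1. It reads forward in XBP1, PDIA6 and HERPUD1 and in reverse complement in CRELD2 and SDF2L1. ERSE joins a CCAAT box to a CCACG box, and ERSE-II holds CCACG beside a CCAAT box in inverse orientation. Both boxes occurred, without forming a full element, in windows of PDIA4, SEL1L and EDEM1. ERN1 held CCAAT without CCACG, and the ATF6 window held neither box. These boxes are short and common: CCAAT was found in 34.6% and CCACG in 38.1% of all windows, and each is part of any full element counted above. The core of the unfolded protein response element, TGACGTG, was in no window of the 10 genes and in 1.97% of all windows. These matches describe letters in a window and are not measured binding sites.

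The values are MAS5 signals, on a linear scale. Signals are given as deposited, whereas differences are log2 values, FDFT1 minus control, centred by subtracting the median over brighter probe sets. That median was -0.11, so a gene with the same deposited signal on both arrays has a centred difference of 0.11. Signals under a floor of 12.2, the median of all signals, were set to the floor, and a probe set was called measured when the higher of its centred signals reached it. The floor is not a detection limit. In bulk RNA, fewer cells with a transcript and less of it per cell cannot be told apart. Of the 24 probe sets 21 were measured, at least 1 for each gene. The other 3 were under the floor on both arrays: XBP1 242021_at with signals of 5.48 with FDFT1 and 7.78 with the control vector, HERPUD1 1569380_a_at with 0.925 with FDFT1 and 4.95 with the control vector, and SEL1L 202063_s_at with 9.40 with FDFT1 and 9.56 with the control vector. Each of these 3 genes was measured by other probe sets. Probe sets differ in how well they bind their target, so signals of different probe sets were not ranked against each other. Identifiers ending in _x_at or _s_at, 10 of the 24, can match more than 1 transcript.

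The size of each difference was read against a probe set error. For this, the brightest 2 probe sets of every gene were compared within 5 ranges of signal, and the SD of the gap between their differences was divided by the square root of 2. The error was 0.49 at a mean log2 signal below 5, 0.30 between 5 and 7, 0.22 between 7 and 9, 0.16 between 9 and 11, and 0.097 for brighter probe sets. It covers differences between probe sets, not between cultures. The 2 arrays had median signals of 12.1 with FDFT1 and 12.3 with the control vector. Among control probe sets, 3′ over 5′ signal ratios, a sign of RNA integrity, were 1.01 with FDFT1 and 0.959 with the control vector for GAPDH, and 1.15 with FDFT1 and 1.16 with the control vector for ACTB.

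None of the 21 measured probe sets of the 10 genes differed between the arrays by as much as 2-fold. Among the 24634 measured probe sets with 1 named gene, 0.775% were at least 2-fold higher and 0.71% at least 2-fold lower with FDFT1. Nor did any of the 21 reach 1.5-fold, against 9.24% of all measured probe sets in either direction (4.92% higher and 4.31% lower). These shares were not matched for signal. Below a mean log2 signal of 5, where differences were widest (SD 0.48), lay 7017 of all measured probe sets and 3 of the 21. At 11 and over the SD was 0.13, with 1229 of all and 4 of the 21. The largest difference was 1.29-fold, for ATF6. Differences exceeded 1 probe set error for 6 of 21, against 33.3% of all, and 2 errors for 0 of 21, against 7.21% of all. The centred differences were above 0 for 13 of 21 probe sets, against 49.9% of all, with a median of 0.03, and all measured probe sets had a median of -0.00048. As deposited, 8 of 21 were above 0 with a median of -0.07, against a median of -0.11 over all measured probe sets. The split between higher and lower therefore depends on the centring, and 5 of the 21 change sign with it.

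**Figure D1:**
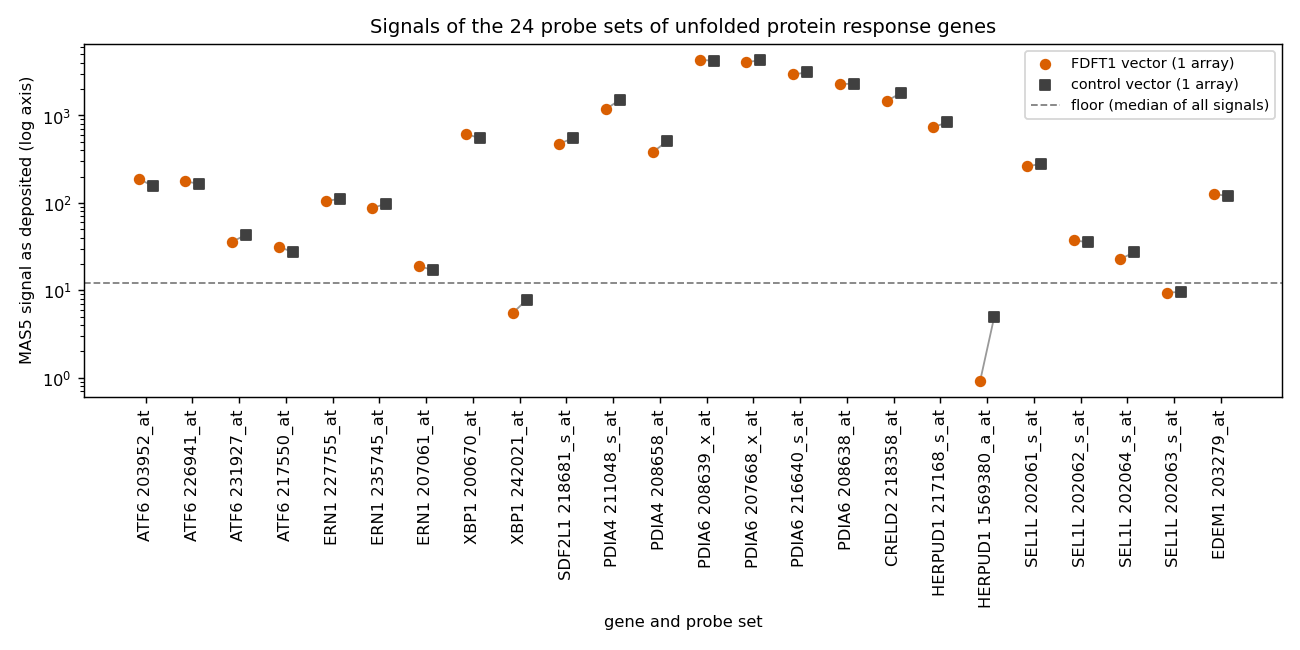
MAS5 signals as deposited (log axis) of the 24 probe sets, with the FDFT1 array as orange circles to the left of the control array as dark squares, 1 array each. The dashed line is the floor of 12.2, and 3 probe sets lie under it on both arrays; for the others the pairs lie close together.

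Among the sensors, ATF6 gave the largest differences. Its 4 probe sets were all measured. The signals of 203952_at were 188 on the FDFT1 array and 157 on the control array, a difference of 0.36 with an error of 0.22. Those of 226941_at were 176 with FDFT1 and 165 with the control vector, a difference of 0.19 with the same error. Both were higher with FDFT1, also as deposited. The other probe sets were dimmer and lay on opposite sides of 0: 217550_at had 31.5 with FDFT1 and 27.2 with the control vector (0.32, error 0.49), and 231927_at had 36.1 with FDFT1 and 43.0 with the control vector (-0.15, error 0.30). The range over the ATF6 probe sets, 0.51, was wider than the largest of the 4 differences, and none exceeded 2 errors.

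ERN1 encodes IRE1, the kinase and endoribonuclease that splices XBP1 mRNA. Its 227755_at signals were 104 with FDFT1 and 112 with the control vector, a centred difference of 0.01. For 235745_at they were 87.2 with FDFT1 and 98.1 with the control vector, a difference of -0.06. Each is a small part of the error of 0.30, so no difference was detectable. The third probe set, 207061_at, was near the floor at 18.9 with FDFT1 and 17.0 with the control vector (0.26, error 0.49).

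XBP1, the transcription factor downstream of IRE1, had 1 measured probe set, 200670_at. Its signal was 618 with FDFT1 and 546 with the control vector, a difference of 0.28 with an error of 0.16. At 1.75 errors this was the largest of the 21 relative to its error, and it was 0.18 as deposited. XBP1 is itself a target of ATF6. How much of the XBP1 RNA was spliced was not measured here.

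Of the 8 measured probe sets of the ER lumen folding factors, 4 were above 0 and 4 below after centring. Of all measured probe sets 49.9% were above 0. PDIA4, a disulfide isomerase with several thioredoxin-like domains, was lower with FDFT1 on both probe sets. Its 211048_s_at signal was 1189 with FDFT1 and 1519 with the control vector, a difference of -0.25 with an error of 0.16. The second, 208658_at, had 382 with FDFT1 and 505 with the control vector, a difference of -0.30 with an error of 0.22. The 2 values lay 0.05 apart, at -1.52 and -1.38 errors. CRELD2, a secreted and ER-resident protein with EGF-like repeats that is released under ER stress, had 1 probe set, at 1464 with FDFT1 and 1804 with the control vector (-0.20, error 0.16). SDF2L1, which works with the ER Hsp70 BiP and its DNAJ partners to keep proteins soluble, had 477 with FDFT1 and 550 with the control vector (-0.10, error 0.22). All 3 genes were lower under centring and as deposited.

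PDIA6, another ER disulfide isomerase, which has been described to limit IRE1 signalling, lay on the other side of 0 after centring. All 4 of its probe sets were above 0, by 0.03 to 0.13, with an error of 0.097 each. The signals of 208639_x_at were 4309.5 with FDFT1 and 4247 with the control vector, and those of 207668_x_at 4076 with FDFT1 and 4283 with the control vector. For 216640_s_at they were 2953 with FDFT1 and 3105 with the control vector, and for 208638_at 2289 with FDFT1 and 2307 with the control vector. As deposited 3 of these 4 were lower with FDFT1, so the sign for PDIA6 comes from the centring. The probe sets of PDIA6 lay within 0.09 of each other, but they read the same RNA and are not replicates.

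**Figure D2:**
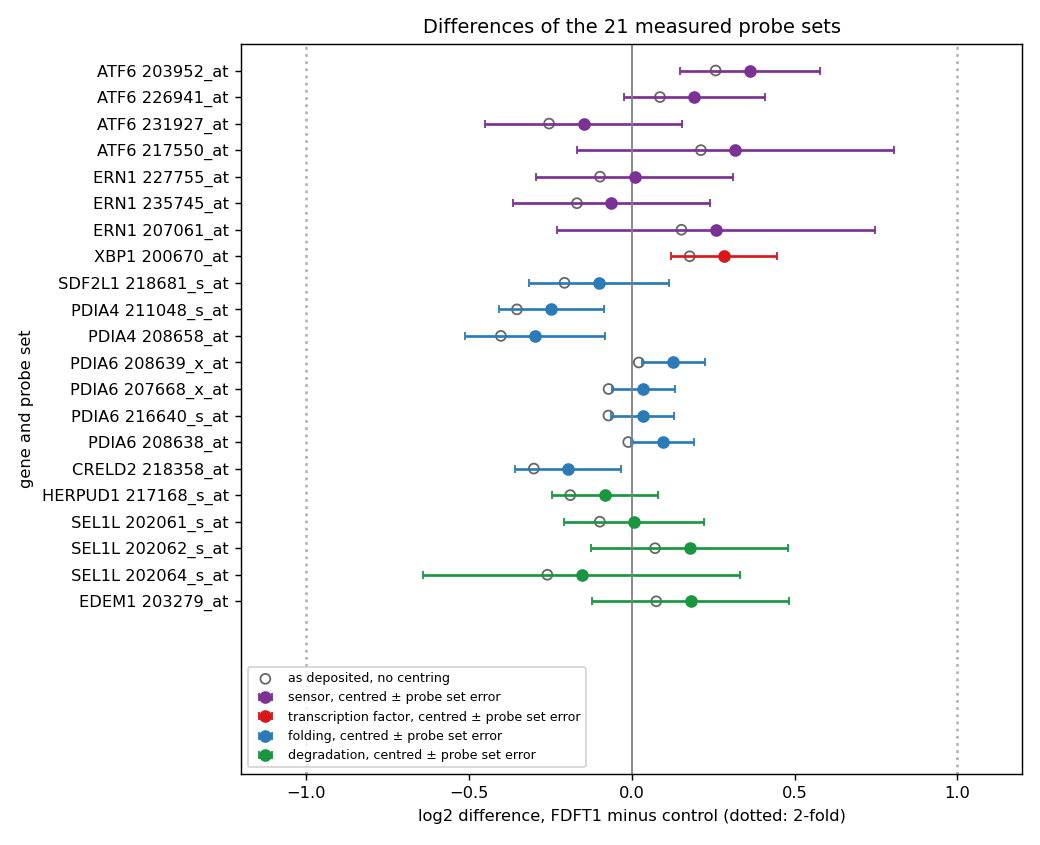
Log2 difference, FDFT1 minus control, of the 21 measured probe sets grouped by role, with filled points for centred values, bars for ± 1 probe set error and open circles for values as deposited. All points lie between -0.30 and 0.36 after centring, well inside the dotted 2-fold lines, with PDIA4 and CRELD2 left of 0 and XBP1 right of it.

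After centring, the measured probe sets of the ER-associated degradation members each lay within 1 error of 0. HERPUD1 is a ubiquitin-like membrane protein that organises the HRD1 ligase complex. Its measured probe set, 217168_s_at, was 734 with FDFT1 and 837 with the control vector, a difference of -0.08 with an error of 0.16. As deposited, the HERPUD1 difference was -0.19, which is beyond 1 error. SEL1L, the adaptor that stabilises HRD1, was at 261 with FDFT1 and 279 with the control vector on 202061_s_at, a centred difference of 0.01. Its dimmer probe sets lay on either side, 202062_s_at at 37.3 with FDFT1 and 35.5 with the control vector (0.18, error 0.30) and 202064_s_at at 22.8 with FDFT1 and 27.3 with the control vector (-0.15, error 0.49). EDEM1, a mannosidase-like protein that hands misfolded glycoproteins to this pathway and is an XBP1 target, had 126 with FDFT1 and 119.7 with the control vector, a difference of 0.18 with an error of 0.30.

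Where several probe sets of a gene were measured, those of PDIA4 and PDIA6 shared 1 sign, which makes 2 of 5 such genes. ATF6, ERN1 and SEL1L had probe sets on both sides of 0, with ranges of 0.51, 0.32 and 0.33. Probe sets of 1 gene read the same RNA and are not replicates. Taking the brightest probe set of each gene, 6 of the 10 genes were above 0, against 49.8% of the 12968 measured genes, and their median was 0.01, against -0.0013 over all measured genes.

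**Figure D3:**
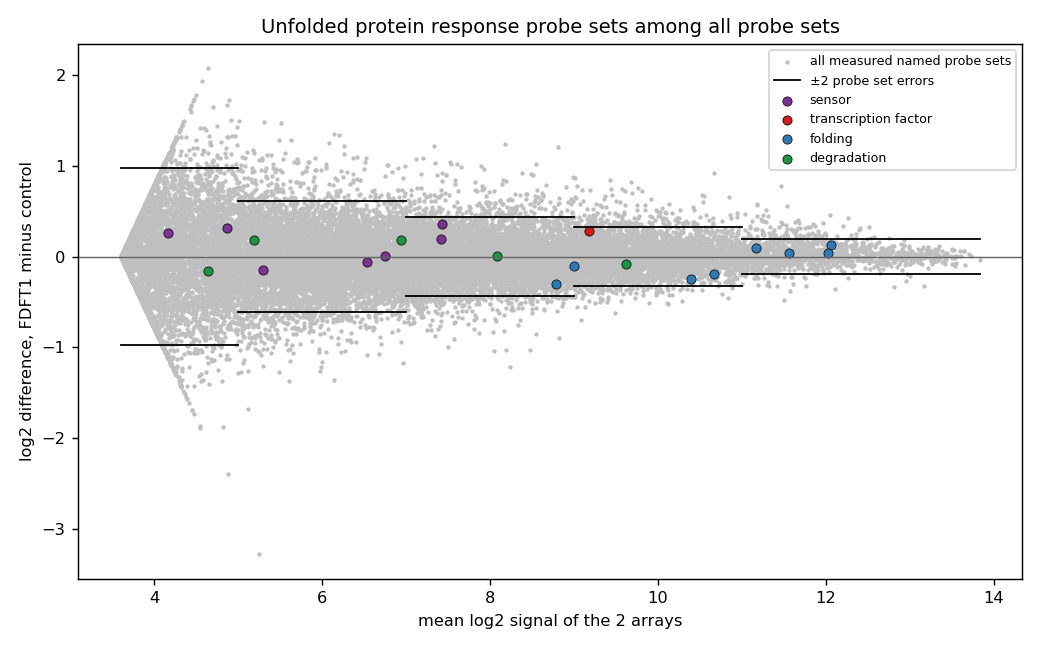
Centred log2 difference, FDFT1 minus control, against the mean log2 signal of the 2 arrays, for all 24634 measured named probe sets (grey) and the 21 of the 10 genes (coloured by role). Black lines mark ±2 probe set errors in each signal range; 7.21% of the grey points and 0 of the coloured points lie at or beyond them.

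Genes with and without a full element lay on both sides of 0, and none of the 10 exceeded 2 errors on its brightest probe set. Of the 5 genes with ERSE or ERSE-II, XBP1 and PDIA6 were above 0 and CRELD2, SDF2L1 and HERPUD1 below it, with a median of -0.08. Among the 5 without, only PDIA4 was below 0 after centring and the median was 0.01. Of these, ERN1 and SEL1L were at 0.01 each, and as deposited both were below 0, at -0.10 each. The same search found a full element in windows of 7 measured genes of the ER chaperone and oxidoreductase lists described next: their median was 0.04, with 4 above 0 and 3 below. HSPA5, the gene of BiP and the classical marker of this response, had signals of 4117 with FDFT1 and 4213 with the control vector, a centred difference of 0.07 with an error of 0.097, and -0.03 as deposited. HSP90B1, which encodes the ER chaperone GRP94, was at 0.06 (1729 with FDFT1 and 1784 with the control vector, error 0.16), and was also below 0 as deposited, at -0.04. HYOU1, an ER chaperone of the Hsp110 class whose window holds ERSE-II, was at -0.35 (549 with FDFT1 and 754 with the control vector, error 0.16).

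**Figure D4:**
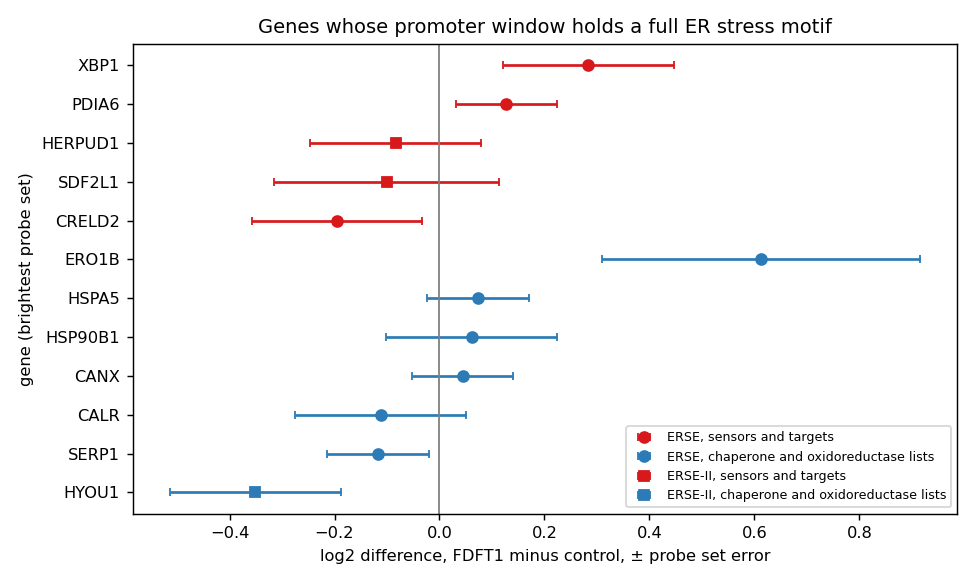
Centred log2 difference, FDFT1 minus control, with ± 1 probe set error, of the 5 sensor and target genes (red) and 7 genes of the chaperone and oxidoreductase lists (blue) whose promoter window holds ERSE (circles) or ERSE-II (squares). Both colours lie on both sides of 0, from HYOU1 at -0.35 to ERO1B at 0.61.

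The wider pathway was followed through 7 gene lists, none of which had a member at least 2-fold different on its brightest probe set, against 1.15% of all measured genes. Of the 279 measured probe sets of these lists, 1 was at least 2-fold different: YY1 201902_s_at, at 1.26 (28.1 with FDFT1 and 4.40 with the control vector, which was set to the floor, error 0.49). YY1, a transcription factor that works with ATF6, was at 0.02 on the brightest of its 6 probe sets and is named after its values were seen. The list of sensor processing and partner genes had 17 of 20 members measured, 8 above 0 and 9 below, with a median of -0.05. ATF6B, the paralogue of ATF6, was at -0.59 on its brightest probe set (56.2 with FDFT1 and 90.9 with the control vector, error 0.30), at -1.94 errors; its other probe sets were at -0.12 and 0.41. MBTPS1, the site-1 protease that cuts ATF6, was lower on both of its probe sets, at -0.30 (259.8 with FDFT1 and 344 with the control vector, error 0.22) and -0.59 (57.5 with FDFT1 and 92.8 with the control vector, error 0.30). MAP3K5, a stress kinase downstream of IRE1, was at -0.27. On the other side were EIF2AK3 at 0.30, the IRE1 paralogue ERN2 at 0.23 and CREBZF, a binding partner of CREB3-type factors, at 0.15. Both ERN2 and CREBZF had further probe sets of the opposite sign.

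The PERK and ATF4 branch had all 17 members measured, 7 above 0 and 10 below, with a median of -0.07. EIF2AK3, the PERK gene itself, had signals of 468 with FDFT1 and 409 with the control vector (0.30, error 0.22). ATF4, the factor translated when eIF2α is phosphorylated, was at -0.07 (3024 with FDFT1 and 3427 with the control vector, error 0.097), and DDIT3, which encodes the pro-apoptotic factor CHOP, at -0.15 (137 with FDFT1 and 164 with the control vector, error 0.22). These 3 differences were each under 1.5 errors. CHAC1, a glutathione-degrading enzyme and target of this branch, was at -0.33, DDIT4, an inhibitor of mTORC1, at -0.32 and PPP1R15A, the phosphatase subunit that reverses eIF2α phosphorylation, at -0.30. NUPR1 was at 0.40 with signals near the floor (16.1 with FDFT1 and 13.1 with the control vector, error 0.49), and ERO1A, an ER oxidase, at 0.19. None of the 17 exceeded 2 errors, against 7.25% of all measured genes.

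Chaperones and cochaperones of the ER had 20 of 21 members measured, 11 above 0 and 9 below, with a median of 0.05. HYOU1 was the 1 member of these 20 beyond 2 errors, against 7.25% of all measured genes. SIL1, a nucleotide exchange factor of BiP, was at -0.32 and UGGT1, the glucosyltransferase that tags misfolded glycoproteins, at -0.27, with 4 of its 5 probe sets lower. DNAJC3, a BiP cochaperone that also inhibits PERK, was at 0.31 on its brightest probe set, with 2 of 4 higher. DNAJC10, a BiP cochaperone with reductase activity, was at 0.25, and 4 of its 5 probe sets were higher; SDF2, the paralogue of SDF2L1, was at 0.19.

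Of the ER oxidoreductases, 15 of 18 were measured, 6 above 0 and 9 below, with a median of -0.04, and 2 exceeded 2 errors, against 7.25% of all measured genes. ERO1B, which reoxidises disulfide isomerases and whose window holds ERSE, was the largest of them at 0.61 (95.9 with FDFT1 and 67.5 with the control vector, error 0.30), with its second probe set at 0.46. TMX1, a membrane-bound thioredoxin-like protein, was at 0.22 on 1 probe set and -0.04 on the other. TMX3 was at -0.35 (278 with FDFT1 and 381 with the control vector, error 0.22), ERP44, which retains ER oxidases, at -0.14 with probe sets of both signs, and PDIA2 at -0.22 with its FDFT1 signal under the floor (5.34 with FDFT1 and 14.7 with the control vector).

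The ER-associated degradation list leaves out HERPUD1, SEL1L and EDEM1. Of its 24 genes 21 were measured, 8 above 0 and 13 below, with a median of -0.01, and 3 exceeded 2 errors, against 7.25% of all measured genes. HERPUD2, the paralogue of HERPUD1, was higher on 3 of 3 probe sets: 222751_at had 460.2 with FDFT1 and 314 with the control vector (0.66, error 0.22), 1558699_a_at had 99.9994 with FDFT1 and 56.1 with the control vector (0.94, error 0.30), and 1552628_a_at was at 0.16. EDEM3, a mannosidase related to EDEM1, was also above 0 on 3 of 3, with 361 on the FDFT1 array and 271 on the control array (0.52, error 0.22) for the brightest and 0.14 and 0.10 for the others. EDEM2, the third of these mannosidase-like genes, was at -0.22 (244 with FDFT1 and 307 with the control vector, error 0.22). NPLOC4, a cofactor of the extracting ATPase p97, was at -0.40 (541 with FDFT1 and 768 with the control vector, error 0.16) and MAN1B1, an ER mannosidase, at -0.30 on both probe sets. DERL3, a derlin of the ER membrane, was at 0.66 on 1 dim probe set and -0.50 on another.

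Of 22 measured translocon and glycosylation genes, 14 were above 0 and 8 below, against 49.8% above 0 of all measured genes. Their median was 0.04 after centring and 0.0039 after quantile normalization. Of the 22, 2 exceeded 2 errors, STT3B and SPCS3, against 7.25% of all measured genes. STT3B, a catalytic subunit of the oligosaccharyltransferase, was at 0.38 (2734 with FDFT1 and 2261 with the control vector, error 0.097), which was 3.93 errors on its 1 probe set. SPCS3, a signal peptidase subunit, was at 0.38 on 1 of 3 probe sets and at -0.14 and 0.03 on the others, and SEC61A2 was at 0.22. SEC61A1, the translocation channel, was at -0.14, SSR2 at -0.13 and SRPRB, a signal recognition particle receptor subunit, at -0.09. The heat shock list, of cytosolic chaperones and the mitochondrial chaperonins HSPD1 and HSPE1, had 11 of 14 members measured, 8 above 0 and 3 below, with a median of 0.05 and a range of -0.06 to 0.15. BAG3 at 0.15, HSPA4 at 0.14 and HSPD1 at 0.08 were the highest, and HSPE1 and HSPB1 at -0.06 and DNAJB1 at -0.05 the lowest. For HSPD1, 2 of its dimmer probe sets lay higher, at up to 0.88. As deposited, without the centring shift of -0.11, the medians of all 7 lists were below 0.

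**Figure D5:**
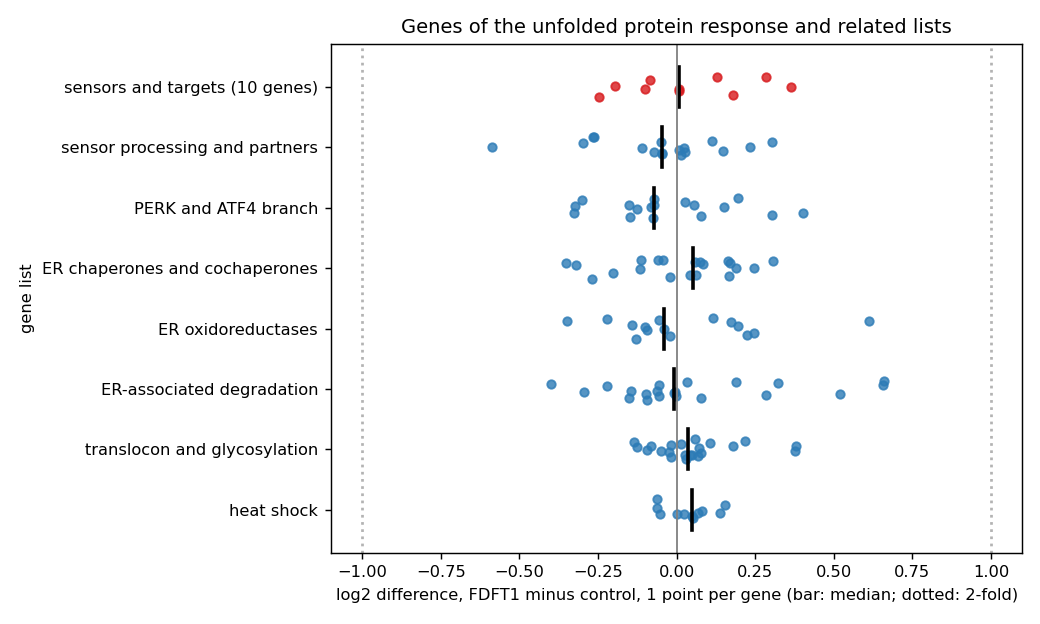
Centred log2 difference, FDFT1 minus control, of each measured gene (brightest probe set) in the 10 sensor and target genes (red) and 7 related lists (blue), with the list median as a black bar and 2-fold as dotted lines. All medians lie between -0.07 and 0.05, and no gene reaches the dotted lines.

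Among markers of other cells, 10 of the 16 with a probe set were measured. Plasma cells run this response at high levels, and their markers MZB1 and JCHAIN and the B cell marker MS4A1 were under the floor on both arrays. The B cell marker CD79A was measured, at -0.21 (40.6 with FDFT1 and 50.5 with the control vector, error 0.30). IRF4 was at 0.16 (13.1 with FDFT1 and 8.32 with the control vector, error 0.49), with its control signal under the floor. SDC1, which plasma cells share with epithelial cells, was at -0.62 (214 with FDFT1 and 355 with the control vector, error 0.22) and lower on 2 of 2 probe sets. The summed signal of the 3 measured plasma and B cell markers was 268 with FDFT1 and 414 with the control vector, most of it SDC1, and their median difference was -0.21. Of 4 other blood cell markers PTPRC was under the floor, and HBB, ITGAM and CD3E were measured with signals near it. All 3 were above 0, against 49.8% of all measured genes, with a median of 0.27. Their summed signal was 45.8 with FDFT1 and 29.2 with the control vector. The control signals of ITGAM (5.73) and CD3E (10.3) were under the floor and were set to it. Both were measured only through the FDFT1 array, so they could lie only above 0. HBB was at 0.58 (18.3 with FDFT1 and 13.2 with the control vector, error 0.49). Of 6 fibroblast and endothelial markers PDGFRB and VWF were under the floor, 4 were measured and 3 of these were above 0, with a median of 0.33. POSTN, the brightest, had signals of 759.8 with FDFT1 and 694 with the control vector (0.24, error 0.16), and COL1A1 had 83.0 with FDFT1 and 65.5 with the control vector (0.45, error 0.30); 1 of 2 POSTN and 1 of 3 COL1A1 probe sets were higher. The summed signal of the 4 was 878 with FDFT1 and 793 with the control vector. RNA on both arrays came from the CL1-0 line, and the source of these marker signals was not tested.

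Of 9 alveolar type II markers 7 were measured, 3 above 0 and 4 below, with a median of -0.14. Above 0 were LAMP3 at 0.26 (58.8 with FDFT1 and 53.0 with the control vector, error 0.30), SFTPB at 0.25 and NKX2-1 at 0.02. The brightest SFTPB probe set had 35.3 with FDFT1 and 32.0 with the control vector, and its other measured probe set was lower. Below 0 were SFTPC at -0.69 (error 0.49), ABCA3 at -0.42 (error 0.30), ETV5 at -0.34 (error 0.22) and LPCAT1 at -0.14 (error 0.16). SFTPC had 1 measured probe set, and its others were under the floor on both arrays. The surfactant gene SFTPC (16.9 with FDFT1 and 29.3 with the control vector) and the lineage factor NKX2-1 (29.3 with FDFT1 and 31.1 with the control vector) were dim, and SLC34A2 was under the floor. LPCAT1, a surfactant lipid enzyme also found in other cells, had 787 with FDFT1 and 934 with the control vector, and ETV5, a transcription factor, 281 with FDFT1 and 383 with the control vector.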

How the data were processed

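RNA of 2 samples, 1 per group, was measured on Affymetrix arrays. The authors deposited 1 linear-scale signal intensity per probe set, made with MAS5 per the submitters' processing notes; its version and scaling target and any detection calls were not given in the sources used here. With 1 array per group, the number of arrays limits the precision.

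Further steps used pandas 2.3.3, numpy 2.4.6 and statsmodels 0.14.6 under Python 3.11.15. The 62 control probe sets were left out. Log2 signals were centred on the median difference over probe sets at or above the floor on both arrays, split evenly over both. Names came from the platform annotation: 41091 probe sets had 1 gene, 1801 several and 11721 none, and only the first were used. No symbol needed updating through Entrez identifiers. A gene took its brightest measured probe set. The steps were tested on simulated data. No test was possible, so sizes were counted at 2-fold.

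The members and lists were chosen with earlier results of these data known. Named were all 10 genes with each probe set, up to 3 measured genes of each list furthest above and 3 furthest below 0, and HSPA5, DDIT3, ATF4, EIF2AK3, HSP90B1 and MBTPS1. Further probe sets, markers and promoter matches were named after their values were seen. With 2 arrays no likeness of patterns across samples could be measured. List genes with no probe set of their own name alone were not analysed here. Alternatives were other scalings, floors, thresholds and probe set choices.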

Additional observations from a re-analysis of the deposited data

How the results depend on the processing

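No paired analysis was possible because each group has 1 array, and for the same reason no replicate could be left out. At thresholds of 1.5-fold and 3-fold, and under each scaling, 0 member probe sets were counted as higher and 0 as lower. Without a floor, 1 was at least 2-fold lower, the HERPUD1 probe set 1569380_a_at, whose signals lie under the floor. Leaving out centring moved the medians to -0.10 for the 10 genes and -0.072 for their probe sets, and to -0.15 for sensor processing and partners, -0.18 for the PERK and ATF4 branch, -0.055 for ER chaperones, -0.14 for oxidoreductases, -0.12 for ER-associated degradation, -0.070 for translocon and glycosylation and -0.059 for the heat shock list; this is the shift between the arrays. Leaving out _x_at and _s_at probe sets, which left 7 member genes and 12 probe sets, gave 0.095 for the genes, 0.14 for the probe sets, -0.0021 for the PERK and ATF4 branch and 0.14 for the heat shock list. The median of sensor processing and partners was 0.0071 without a floor and with a floor at the 75th percentile (signal 99.4), that of the oxidoreductases 0.056 with the mean of all probe sets, and that of translocon and glycosylation 0.0039 after quantile normalization; the cause was not tested. Of the 21 member probe sets, 5 had the other sign as deposited, 1 after quantile normalization, with 1 more at exactly 0, and 0 after loess. Signals near the floor limit what the dim probe sets of ATF6, ERN1 and SEL1L can show.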

Other observations

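Full ER stress elements were also found in windows of other genes, in and outside the lists. In all, 46 windows of 44 genes held ERSE or ERSE-II, 0.131% of windows, and 31 of these genes were measured. Their median was 0.03, with 16 above 0 and 15 below. The genes named next were chosen after their values were seen. NUCB1, a calcium-binding Golgi protein described as a brake on ATF6 cleavage, was at -0.52 (116 with FDFT1 and 179.7 with the control vector, error 0.22), with 2 of 2 probe sets lower and ERSE-II in its window. FICD, the enzyme that AMPylates BiP, was at -0.34 (28.3 with FDFT1 and 38.6 with the control vector, error 0.30) on its 1 probe set. Of the chaperone list, SERP1, a translocon-associated stress protein, was at -0.12 (3006 with FDFT1 and 3509 with the control vector, error 0.097) on its brightest probe set, while the other 3 of its 4 probe sets were higher. CALR, the lectin chaperone calreticulin, was at -0.11 with 3 of 3 probe sets lower, and CANX, its membrane-bound relative calnexin, at 0.04 with 4 of 4 higher.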
